A study of Mus musculus with 24 samples.

Results

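Among the genes measured in liver sinusoidal endothelial cells (LSECs) of E12.5 mouse embryos, 10 are described here. They were chosen by the p-value of their TPM difference between Brg1-ECko and control LSECs, which was among the smallest of all genes. They were Mmrn2, Gpr182, Emb, Tspan2, Mecom, Septin1, Chst7 and Fam124a, which were lower in Brg1-ECko LSECs, and Nts and Chn2, which were higher. The table held 25361 genes in 24 libraries, and 13444 of them had enough signal in LSECs to be ranked. The 10 genes held ranks 1 to 7 and 10 to 12 of that ranking. Il10ra and Emilin2, at ranks 8 and 9, were not on the list.

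BRG1, encoded by Smarca4, is the ATPase of SWI/SNF chromatin remodeling complexes, which slide and evict nucleosomes. CHD4 is the ATPase of the NuRD complex, which pairs nucleosome remodeling with histone deacetylation. LSECs line the fenestrated sinusoids of the liver, clear circulating macromolecules through scavenger receptors and, in the embryo, share the liver with hepatoblasts and a large population of maturing blood cells.

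Control embryos were Cre-negative littermates. Brg1-ECko embryos were Brg1 fl/fl, Chd4 fl/+ and VE-cadherin-Cre+, so that they also carried a floxed Chd4 allele beside a wild-type allele. Chd4-ECko embryos were the converse, Brg1 fl/+, Chd4 fl/fl and VE-cadherin-Cre+. Brg1/Chd4-ECdko embryos, labelled Chd4/Brg1-ECDKO and called ECdko here, were fl/fl for both genes. VE-cadherin-Cre acts in endothelial cells and also in some blood cells. All embryos shared a mixed genetic background, and all livers were digested with transcription inhibitors before CD146 MicroBeads split them into LSECs and the remaining non-EC cells. Each of the 8 combinations of fraction and genotype had 3 libraries, numbered 1 to 3. Values are TPM, a length-corrected share of the transcripts in a library, which are scaled to the same total in every library and keep no sequencing depth. Nothing in the labels says whether the 3 libraries of a group came from separate litters, so p-values measure the spread between these libraries.

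Endothelial identity was present in the LSEC libraries, whose TPM summed over 12 endothelial genes (Cdh5, Pecam1, Tie1 and others) ranged from 696 to 1480, against 56.7 to 97.4 in non-EC libraries. The LSEC libraries also held mesenchymal RNA, with 1365 to 2263 TPM summed over 12 stellate and mesenchymal genes, against 62.3 to 223 in non-EC libraries. The 12 hepatoblast genes (Afp, Alb and others) summed to 3930 to 9299 TPM in 11 of the LSEC libraries, but to 32117 TPM in Brg1-ECko replicate 1, which also had the lowest endothelial sum (696, against 1005 to 1480 in the other 11). Whole-gene Smarca4 TPM overlapped between genotypes, with 134 to 161 in control and 111 to 157 in Brg1-ECko LSECs, and Chd4 was at 246 to 285 in control and 168 to 252 in Chd4-ECko LSECs. Such a value also counts transcripts that lack the floxed exons, so it does not check the deletion. The Y-linked Eif2s3y was at 23.8 TPM or more in all 3 control libraries and under 2 TPM in Brg1-ECko replicates 1 and 2, Chd4-ECko replicate 3 and ECdko replicates 2 and 3. Every control library thus held RNA of male embryos, and embryo sex was unevenly spread over the genotypes. The non-EC libraries of control and Brg1-ECko showed the same pattern.

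Since the comparison of Brg1-ECko with control LSECs chose the genes, its values for the members are descriptions with no test. Other genes were tested in it with limma, and 9.68% of all 13444 genes had an unadjusted p under 0.05 there. No gene outside the members had an adjusted p under 0.05 there. No gene list below could thus hold one that passed, and nothing is read from that. The comparison of ECdko with Chd4-ECko LSECs (already Brg1 fl/+ with Cre) asked whether loss of Brg1 also moved these genes where Chd4 was deleted. Its difference shared no library with the difference that made the choice, although the spread used in the ranking was estimated over all 12 LSEC libraries, so a low spread within these groups also entered the choice. It was tested with limma over 13128 genes with Benjamini-Hochberg adjustment. A gene is said to have risen or fallen where its adjusted p was under 0.05. Differences are in mean log2(TPM + 1) with their SE, and folds are on that scale, which understates changes of low genes. In bulk RNA, fewer cells of a type and less RNA per cell cannot be told apart.

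The members that act at the cell surface or in the matrix were Mmrn2, Gpr182, Emb and Tspan2. Mmrn2 encodes multimerin 2, a glycoprotein of the endothelial extracellular matrix that binds the receptors CD93 and CLEC14A. It lies at chr14:34097422-34126527 (GRCm39, plus strand, 7 exons). Its level was 86.8, 106 and 76.6 TPM in control LSECs and 35.7, 38.2 and 51.5 TPM in Brg1-ECko LSECs, and the groups did not overlap. The mean was 89.8 ± 14.8 in control and 41.8 ± 8.50 TPM in Brg1-ECko LSECs (SD, n = 3), a difference of -1.09 (SE 0.158) or 2.13-fold. Chd4-ECko LSECs had 82.3, 80.5 and 93.4 TPM, within the control range, while ECdko LSECs had 48.1, 55.8 and 57.5 TPM, all below every Chd4-ECko value. The ECdko difference was -0.66 (SE 0.165, 95% CI -0.998 to -0.32) and missed the threshold (limma, adjusted p = 0.0751), which it passed without Chd4-ECko replicate 1 (-0.68, adjusted p = 0.01998). In order, control and Chd4-ECko overlapped at the top and ECdko and Brg1-ECko overlapped at the bottom, with a gap between the pairs.

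Of the 4257 exonic bases of Mmrn2, 314 are shared with exons of Sncg on the opposite strand. Sncg, which encodes gamma-synuclein, also differed between the genotypes, by -0.78 (SE 0.175) in Brg1-ECko and by -1.42 (SE 0.188) in ECdko LSECs, where it fell (limma, adjusted p = 0.000125). Whether the counting used strand is not given in the sources used here, so reads of these bases cannot be told apart between the genes. Of 9 genes listed around Mmrn2 (its family members, its receptors, Vegfa and Kdr), 0 passed the test in either comparison with limma, with 5 and 2 at an unadjusted p under 0.05. Of the 5, 4 were lower in Brg1-ECko LSECs. The other, the family member Emilin2, was higher, at 4.78 TPM in control and 10.3 TPM in Brg1-ECko LSECs (0.97, SE 0.178). It held rank 9 in the comparison that made the choice, and differed by -0.20 in ECdko LSECs. The receptor Cd93 was at 92.3 TPM in control and 56.0 TPM in Brg1-ECko LSECs (-0.73, adjusted p = 0.187, limma) and differed by -0.13 in ECdko LSECs. Clec14a differed by -0.62 and then by 0.29 in the same comparisons.

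Gpr182 encodes an atypical receptor of sinusoidal and lymphatic endothelium that scavenges chemokines. It lies at chr10:127580924-127587635 (minus strand) and was the most abundant of the 10 genes in control LSECs. Control libraries had 145, 158 and 129 TPM and Brg1-ECko libraries 65.6, 78.1 and 90.9 TPM. Chd4-ECko libraries had 120, 133 and 138 TPM and ECdko libraries 87.8, 92.3 and 114 TPM. Neither pair overlapped, and ECdko replicate 3 came closest to the Chd4-ECko range. The Brg1-ECko difference was -0.88 (SE 0.146), 1.84-fold, and the ECdko difference was -0.42 (SE 0.167, 95% CI -0.76 to -0.07), which missed the threshold (limma, adjusted p = 0.332). Of 12 related receptors, adaptors and ligands tested against control, 9 were lower and 0 passed, with 3 at an unadjusted p under 0.05 (limma). Ackr1, a decoy chemokine receptor, was at 10.7 TPM in control and 4.90 TPM in Brg1-ECko LSECs, and Cxcl10, a chemokine, was at 2.01 and 4.70 TPM. In ECdko LSECs, Ackr1 differed by -0.36 and Cxcl10 by 0.79, with 0 of 11 genes passing and 1 at an unadjusted p under 0.05.

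Emb encodes embigin, an immunoglobulin-domain glycoprotein that accompanies monocarboxylate transporters to the membrane (chr13:117345072-117414817, plus strand). Control LSECs had 72.2, 80.0 and 79.2 TPM and Brg1-ECko LSECs 35.9, 45.4 and 46.7 TPM, a difference of -0.85 (SE 0.160). Chd4-ECko LSECs had 55.9, 76.4 and 78.6 TPM and ECdko LSECs 39.7, 40.7 and 51.9 TPM. The low Chd4-ECko library lay close to the high ECdko library without overlap, and the difference was -0.65 (SE 0.179, 95% CI -1.02 to -0.29; limma, adjusted p = 0.120). Leaving out Chd4-ECko replicate 1, the low library, Emb passed the test (adjusted p = 0.00355, limma), in a fit where 437 genes passed in place of 69. With Afp as a covariate the Emb difference was -0.19, and over the alternative settings the adjusted p reached 0.602. The transporter Slc16a1 was at 63.4 ± 6.23 TPM in control and 90.4 ± 34.2 TPM in Brg1-ECko LSECs (SD, n = 3). The median ECdko difference of the 5 transporter genes and relatives of embigin was 0.13, equal to that of all genes. With limma, 0 of the 5 passed in either comparison, with 2 and 0 at an unadjusted p under 0.05.

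Tspan2 encodes a tetraspanin, one of a family of membrane proteins that organize receptors and integrins (chr3:102641813-102708829, plus strand). Its levels were 18.8, 19.1 and 16.01 TPM in control and 7.88, 9.00 and 12.0 TPM in Brg1-ECko LSECs, a difference of -0.85 (SE 0.161). Chd4-ECko LSECs had 13.8, 14.2 and 14.2 TPM, below every control library, and ECdko LSECs had 11.02, 12.7 and 13.8 TPM, which overlapped them. The ECdko difference was -0.16 (SE 0.187, 95% CI -0.55 to 0.22; limma, adjusted p = 0.757). Among 24 other tetraspanins, 18 were lower in Brg1-ECko LSECs with a median of -0.19, and 0 passed, with 6 at an unadjusted p under 0.05 (limma). Tspan18 (-0.55) and Tspan7 (-0.44) were among the 6. In ECdko LSECs, 13 of the 24 were lower, 0 passed and 3 had an unadjusted p under 0.05.

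Of the members that act inside the cell, Mecom encodes EVI1, a zinc-finger transcription factor known from hematopoietic stem cells and endothelium. It spans chr3:30005439-30602157 (minus strand, 16 exons). Control LSECs had 14.4, 17.4 and 12.5 TPM and Brg1-ECko LSECs 5.85, 5.23 and 8.39 TPM, a difference of -1.08 (SE 0.182). Chd4-ECko LSECs had 10.04, 7.94 and 8.77 TPM and ECdko LSECs 7.42, 7.11 and 8.22 TPM, and these groups overlapped. The level was 0.66 lower on the log2(TPM + 1) scale in Chd4-ECko than in control LSECs, and the ECdko difference from Chd4-ECko was -0.21 (SE 0.198, 95% CI -0.61 to 0.20; limma, adjusted p = 0.705). Mecom and Tspan2 were the 2 members whose groups overlapped in this comparison. Of 15 related factors of blood and endothelium, 0 passed against control, with 3 at an unadjusted p under 0.05 (limma). In ECdko LSECs Prdm16, the nearest relative of Mecom, was the only one of the 15 to pass (1.07, SE 0.241; limma, adjusted p = 0.0381), with 0.929 TPM in Chd4-ECko and 2.98 TPM in ECdko LSECs. Only 1 of the 3 Chd4-ECko libraries reached 1 TPM, so Prdm16 entered the test through the ECdko group, where it was high.

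Septin1 encodes a GTP-binding protein of the septin family, whose members assemble into filaments beneath the membrane (chr7:126812948-126832302, minus strand). It had the smallest p of all genes in the comparison that made the choice. Control LSECs had 32.9, 34.3 and 31.5 TPM and Brg1-ECko LSECs 16.02, 17.0 and 19.8 TPM, a difference of -0.87 (SE 0.126). Chd4-ECko LSECs had 66.9, 83.8 and 73.6 TPM and ECdko LSECs 49.4, 53.8 and 54.8 TPM. No neighbouring groups overlapped in the order Chd4-ECko, ECdko, control, Brg1-ECko, and Septin1 was the only one of the 8 lower members for which both Chd4-ECko and ECdko lay above control. Chd4-ECko was 1.16 and ECdko 0.66 above control on the log2(TPM + 1) scale, while the ECdko difference from Chd4-ECko was -0.49 (SE 0.165, 95% CI -0.83 to -0.15; limma, adjusted p = 0.225). The 9 other septins tested differed by -0.16 to 0.04 from control in Brg1-ECko LSECs, with 0 passing and 0 at an unadjusted p under 0.05 (limma). In ECdko LSECs 7 of the 9 were higher, with 0 passing and 1 at an unadjusted p under 0.05.

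Chst7 encodes a Golgi sulfotransferase that adds sulfate to chondroitin. It lies on the X chromosome (chrX:19925723-19966228, plus strand, 2 exons). Control LSECs had 7.49, 10.1 and 8.60 TPM and Brg1-ECko LSECs 1.98, 4.62 and 3.61 TPM, a difference of -1.19 (SE 0.217). Chd4-ECko LSECs had 8.05, 8.59 and 10.6 TPM, overlapping the controls, and ECdko LSECs had 3.56, 3.64 and 3.98 TPM. All 3 ECdko values thus lay at less than 4 TPM and all 3 Chd4-ECko values above 8 TPM. Chst7 fell by 1.09 in ECdko LSECs (SE 0.206, 95% CI -1.51 to -0.66), or 2.12-fold, and was the only member to pass the test (limma, adjusted p = 0.00877). Over the alternative settings the difference stayed between -1.26 and -0.87 and the adjusted p between 0.000878 and 0.335, with the call lost in 7 of 17 settings. With Eif2s3y as a covariate the difference was -1.15 and the adjusted p was 0.123 (limma), and without Chd4-ECko replicate 3 the difference was -0.98 and the call was lost. Among 19 other genes of glycosaminoglycan sulfation and chondroitin assembly, 15 were higher in ECdko LSECs and 0 passed, with 3 at an unadjusted p under 0.05 (limma), and 12 were lower in Brg1-ECko LSECs, with 0 passing and 1 at an unadjusted p under 0.05. The most abundant of them, Chst15 and Chsy1, differed by 0.25 and 0.22 in ECdko LSECs.

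The upstream sequence of Chst7 is printed because it is the member that passed the ECdko test. The 5 motifs were searched on both strands in the 250 bases before the start of each canonical transcript: the ETS core CCGGAA, the AP-1 motif TGANTCA, the GATA motif AGATAA, the SOX motif AACAAT and the SP/KLF motif GGGCGG. Capitals mark matches, and bases inside the gene record are left out. The window shown is chrX:19925549-19925722 on the plus strand of GRCm39, with an SP/KLF match 127 to 122 bases before the start.
Chst7: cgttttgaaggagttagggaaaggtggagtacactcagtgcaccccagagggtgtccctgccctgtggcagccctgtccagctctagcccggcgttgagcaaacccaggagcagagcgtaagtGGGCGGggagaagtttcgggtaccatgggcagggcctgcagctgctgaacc

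Fam124a, for which no role is given here, lies at chr14:62793122-62847330 (plus strand). Control LSECs had 29.4, 29.995 and 26.1 TPM and Brg1-ECko LSECs 12.3, 12.7 and 17.7 TPM, a difference of -0.97 (SE 0.160). Chd4-ECko LSECs had 16.5, 19.7 and 20.5 TPM, all under the control range, and ECdko LSECs had 11.8, 12.3 and 14.7 TPM, all under the Chd4-ECko range. The Chd4-ECko mean was 0.57 below control on the log2(TPM + 1) scale. The ECdko difference was -0.51 (SE 0.187, 95% CI -0.90 to -0.13; limma, adjusted p = 0.271). Among the 8 lower members, only Fam124a had an ECdko mean (12.9 TPM) below its Brg1-ECko mean (14.2 TPM), and those groups overlapped.

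Nts and Chn2 were the members that were higher in Brg1-ECko LSECs. Nts encodes the precursor of neurotensin, a secreted peptide of gut and brain (chr10:102317614-102326396, minus strand). Control LSECs had 1.44, 1.99 and 1.02 TPM and Brg1-ECko LSECs 4.63, 10.3 and 8.01 TPM, a difference of 1.76 (SE 0.263). Chd4-ECko LSECs had 2.07, 2.65 and 2.18 TPM, each above every control library, and ECdko LSECs had 3.15, 5.71 and 5.22 TPM. None of the ECdko values reached down to the Chd4-ECko range. The ECdko difference was 0.76 (SE 0.231, 95% CI 0.28 to 1.24; limma, adjusted p = 0.162). Of 9 neurotensin receptors, sortilins and processing enzymes, 0 passed in either comparison, with 0 and 2 at an unadjusted p under 0.05 (limma). The receptor Ntsr1 was at 1.16 TPM in control and 1.25 TPM in Brg1-ECko LSECs, and the sorting receptor Sort1 at 26.2 and 28.3 TPM.

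Chn2 encodes a chimaerin, a GTPase-activating protein that turns off Rac on binding diacylglycerol (chr6:54016483-54278796, plus strand). Control LSECs had 3.87, 4.03 and 3.77 TPM and Brg1-ECko LSECs 6.73, 10.7 and 11.4 TPM, a difference of 1.08 (SE 0.189). Chd4-ECko LSECs, with 3.66, 4.10 and 3.80 TPM, matched the controls within their spread, and ECdko LSECs had 5.47, 6.49 and 7.43 TPM. The ECdko libraries all lay above the Chd4-ECko libraries, with a difference of 0.61 (SE 0.209, 95% CI 0.18 to 1.05; limma, adjusted p = 0.233). Of 19 Rac GTPases and regulators, 4 had an unadjusted p under 0.05 in Brg1-ECko LSECs and 0 passed (limma). These were Rac2 (0.71), Dock2 (0.62), Vav1 (0.59) and Vav2 (0.33), all higher. Rac2, Vav1 and Dock2 are known from blood cells, and 13 of 14 myeloid marker genes were also higher in Brg1-ECko LSECs, with a median of 0.56. Their part in these values was not tested. The paralog Chn1 differed by -0.01. In ECdko LSECs 0 of the 19 passed and 1 had an unadjusted p under 0.05.

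The upstream sequences of the members that were higher are printed to set them beside that of Chst7. Nts is shown at chr10:102326397-102326597 on the minus strand, with an AP-1 match 139 to 133 bases and a GATA match 63 to 58 bases before the start. Chn2 is shown at chr6:54016233-54016482 on the plus strand and holds none of the 5 motifs.
Nts: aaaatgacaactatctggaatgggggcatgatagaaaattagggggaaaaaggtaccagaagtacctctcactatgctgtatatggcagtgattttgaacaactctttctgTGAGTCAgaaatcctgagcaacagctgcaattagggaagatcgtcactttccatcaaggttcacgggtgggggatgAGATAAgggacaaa
Chn2: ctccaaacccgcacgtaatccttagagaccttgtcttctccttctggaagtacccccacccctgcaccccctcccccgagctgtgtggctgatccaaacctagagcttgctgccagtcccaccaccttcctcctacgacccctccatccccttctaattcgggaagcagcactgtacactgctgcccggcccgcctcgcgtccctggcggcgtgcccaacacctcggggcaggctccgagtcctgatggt

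**Figure D1:**
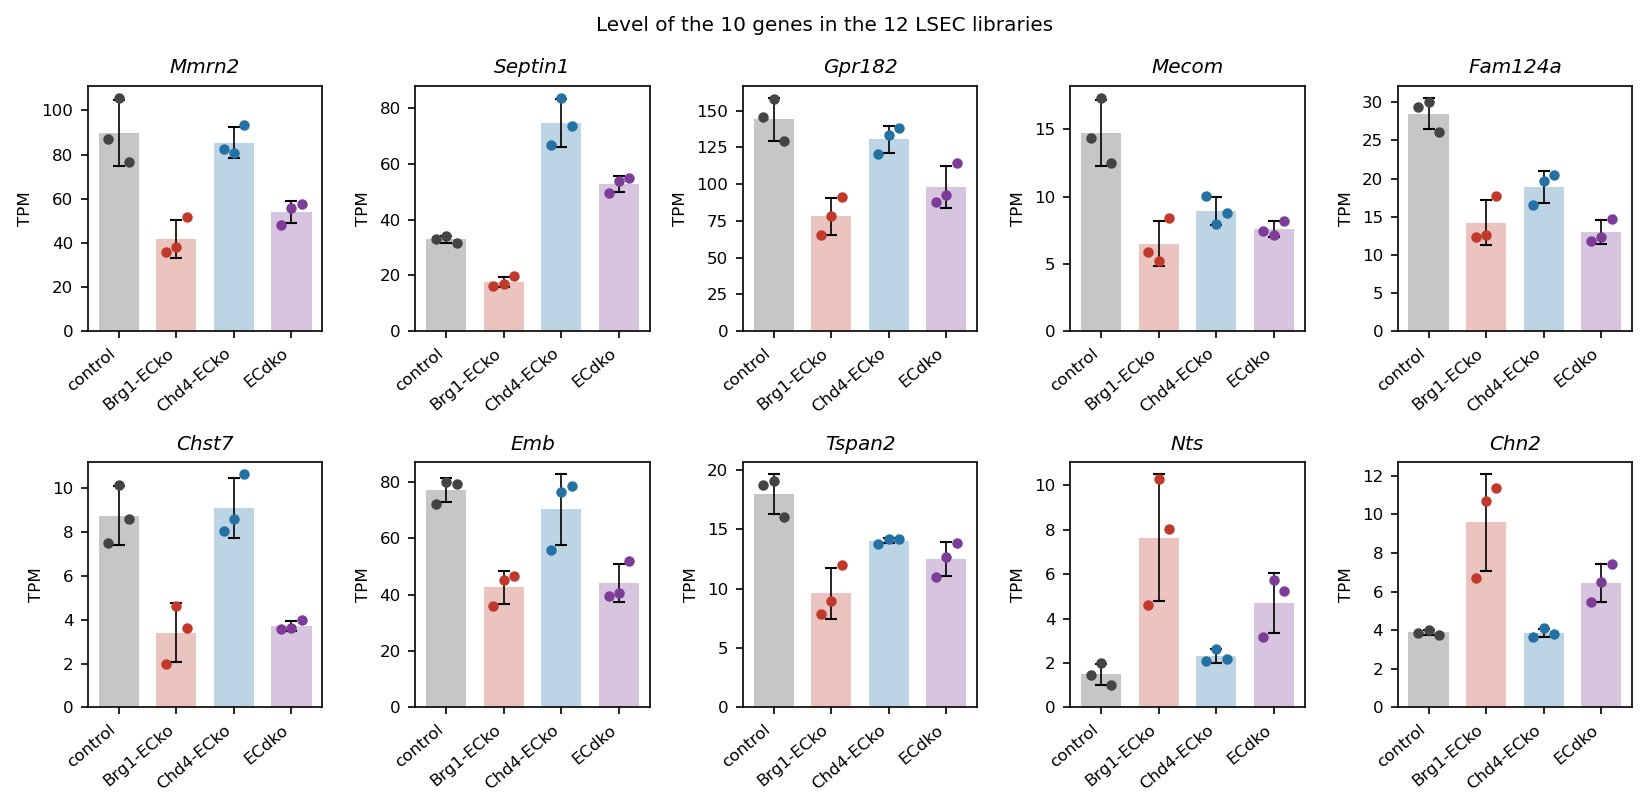
TPM of each member (y axis, linear from 0) in control, Brg1-ECko, Chd4-ECko and ECdko LSECs (x axis). Bars are means, error bars the SD and points the 3 libraries of a group, and among the 8 lower members Septin1 alone has both Chd4-ECko and ECdko bars above control (74.8 and 52.7 against 32.9 TPM).

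Across the 21770 protein-coding genes with such a window, 36.3% held the SP/KLF motif, against 4 of the 10 members (Mmrn2, Mecom, Chst7 and Tspan2). The AP-1 motif was found in Mmrn2 and Nts and in 6.17% of all windows, and the GATA motif in Nts, Fam124a and Emb and in 9.6% of all. The ETS core (12.4% of all) and the SOX motif (9.67%) were found in 0 of the 10. The AP-1 motif thus occurred in a lower and a higher member. The median GC content was 55.2% in the members and 53.2% in all windows. For 5 members, Septin1, Mecom, Emb, Nts and Chst7, the canonical start lies inside the gene record, and any start further upstream is not described by these windows.

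The nearest tested gene on each side of every member gave 20 genes, of which 11 differed in the same direction as their member between Brg1-ECko and control LSECs. With limma, 0 of the 20 passed and 2 had an unadjusted p under 0.05, Glud1 beside Mmrn2 (0.89) and Prr15 beside Chn2 (0.81). Their median difference in size was 0.17, against 0.16 over all genes. In ECdko LSECs Sycp1, beside Tspan2, fell by 1.30 (limma, adjusted p = 0.00337), while Tspan2 itself did not pass. Exons of Septin1 overlap those of Mylpf and exons of Gpr182 those of Zbtb39 on the opposite strand, over 257 and 74 bases, and these partners differed by 0.14 and -0.10 in Brg1-ECko LSECs. Exons of Emb share 686 of 6789 bases with Gm17509 and exons of Chn2 share 552 of 3583 bases with 9130019P16Rik, both lncRNA genes on the opposite strand that were not analysed here, so the doubt on strand given for Mmrn2 holds for these 4 members too.

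Read together, the 10 genes differed in the same direction in both comparisons, as did 65.4% of all 13128 genes and 78.4% of the 1254 other genes with an unadjusted p under 0.05 in Brg1-ECko LSECs. In the comparison that chose them, all 10 had non-overlapping libraries, as did 14.6% of all genes, and 0.0223% of all genes passed, from which nothing is read. In ECdko against Chd4-ECko LSECs, 1 of the 10 passed (limma), against 0.526% of all genes. At an unadjusted p under 0.05 there were 8 of the 10, against 11.7% of all genes. Of the 1254 other genes, 23.5% had both such a p and the same direction, or 17.99% of those lower and 25.5% of those higher in Brg1-ECko LSECs. Of the 8 lower members, 6 had such a p and libraries that did not overlap, against 1.93% and 2.22% of all genes in that direction. For the 2 higher members the background was 9.77% and 13.7%. The ranking drew its spread from these libraries too, which favours small p-values and separate libraries here, so these counts are descriptions. The median ECdko difference was -0.50 for the lower and 0.69 for the higher members, against 0.13 for all genes, while the Brg1-ECko medians were -0.93, 1.42 and 0.08. Every member had a smaller difference in ECdko than in Brg1-ECko LSECs. Selection by the smallest p favours large values in the comparison it used. The comparisons also differ in genotype. Chd4-ECko embryos were already Brg1 fl/+ with Cre, and Brg1-ECko embryos differed from control in Chd4 too. The sizes are thus not like for like, and whether the effects themselves differ was not tested. Quantile normalization brought the median of all genes in the ECdko comparison to 0.01, kept all 10 directions and gave 10 of 10 an unadjusted p under 0.05, against 11.7% of all genes in that fit. With Afp as a covariate 4 of 10 had such a p, against 13.9% of all genes. Leaving out each library gave 6 to 8 of 10, against 6.35% to 16.5% of all genes.

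**Figure D2:**
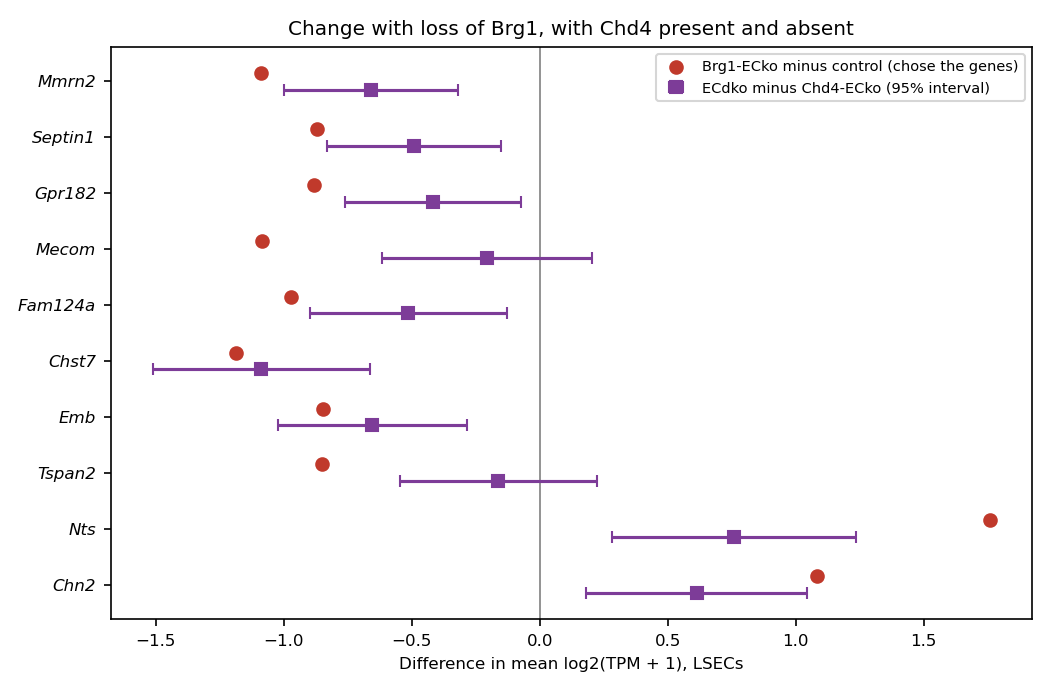
Difference in mean log2(TPM + 1) (x axis) for each member (y axis) in LSECs. Circles are Brg1-ECko minus control, which chose the genes and has no interval, and squares are ECdko minus Chd4-ECko with 95% intervals, which leave out 0 for 8 of the 10 members and include it for Mecom and Tspan2.

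At the edge of the choice, Emb and Tspan2, at ranks 11 and 12, differed by -0.85 (SE 0.160) and -0.85 (SE 0.161), and AU021092 and Aqp1, the first genes outside at ranks 13 and 14, by -1.12 (SE 0.213) and -0.99 (SE 0.193). Aqp1, a water channel of endothelium, was at 149 TPM in control and 73.5 TPM in Brg1-ECko LSECs. Il10ra (1.22, SE 0.220) and Emilin2 (0.97, SE 0.178), with smaller p-values than Chst7, Emb and Tspan2, were both higher.

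Markers of endothelial cells and hepatoblasts were compared in the same libraries. All 12 endothelial genes were lower in Brg1-ECko LSECs, with a median of -0.48, and all 12 sinusoidal genes (Stab2, Lyve1, Oit3 and others), with a median of -0.40. All 12 hepatoblast genes were higher, with a median of 1.15. With limma, 0 genes of these lists passed, with 7, 7 and 12 at an unadjusted p under 0.05. Without Brg1-ECko replicate 1 the medians were -0.28 for the endothelial, -0.23 for the sinusoidal and 0.48 for the hepatoblast genes, with 11 and 10 genes lower and 12 higher, 0 that passed and 4, 4 and 0 at an unadjusted p under 0.05. Among the sinusoidal genes Lyve1 differed by -0.83 and Stab2, a scavenger receptor for hyaluronan, by -0.75. Both were close to Tspan2 and Emb and below the median of their list. The endothelial genes ranged from -1.03 for the tight junction gene Cldn5 to -0.19 for Pecam1. Summed endothelial TPM were 1131 to 1480 in control and 696 to 1183 in Brg1-ECko LSECs. Set relative to the mean of the 12 endothelial genes, the 8 lower members kept their direction, with differences from -0.36 (Emb and Tspan2) to -0.70 (Chst7), and the higher members moved away from 0, to 2.25 for Nts and 1.57 for Chn2. On that scale 2 of the 10 were among the 12 genes with the smallest p. The part of cell composition in the lower members was not tested further.

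In ECdko against Chd4-ECko LSECs the endothelial list was nearer level, with 8 of 12 genes lower and a median of -0.11, and summed TPM of 1039 to 1263 against 1157 to 1368. The sinusoidal list had 10 of 12 genes lower (median -0.29) and the hepatoblast list 12 of 12 higher (median 0.51). With limma, 0, 0 and 1 gene of these lists passed (Apob), with 3, 5 and 9 at an unadjusted p under 0.05. Blood-cell lists were lower, with 12 of 12 erythroid genes (median -0.61, 6 at an unadjusted p under 0.05) and 14 of 14 myeloid genes (median -0.37, 5 at an unadjusted p under 0.05), of which 0 passed (limma). The part of these lists in the members' values was not tested. Relative to the endothelial genes, Mmrn2 differed by -0.53, Emb by -0.53, Chst7 by -0.96, Nts by 0.89 and Chn2 by 0.74. Tspan2 was at -0.04 and Mecom at -0.08, close to the endothelial average. With Afp, a hepatoblast gene, as a covariate, Chst7 was at -0.87, Nts at 0.95 and Chn2 at 0.82, while Gpr182 was at -0.11, Emb at -0.19, Fam124a at -0.20 and Tspan2 at -0.01. In that fit 4 of the 10 had an unadjusted p under 0.05, against 13.9% of all genes.

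Brg1-ECko replicate 1, with its high hepatoblast sum (Afp 12314 TPM, against 1267 to 3513 in the other LSEC libraries), had the lowest value of its group for 9 of the 10 members, Nts and Chn2 included, and a middle value for Mecom. Without it, Mmrn2 differed by -0.99, Septin1 by -0.81, Gpr182 by -0.76, Mecom by -1.03, Fam124a by -0.88, Chst7 by -0.93, Emb by -0.73 and Tspan2 by -0.73, each nearer 0. Nts and Chn2 then differed by 2.04 and 1.30, further from 0. All 10 kept their direction, and 4 of the 10, Nts, Chn2, Mmrn2 and Septin1, remained among the 12 genes with the smallest p, at ranks 1, 3, 5 and 6.

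**Figure D3:**
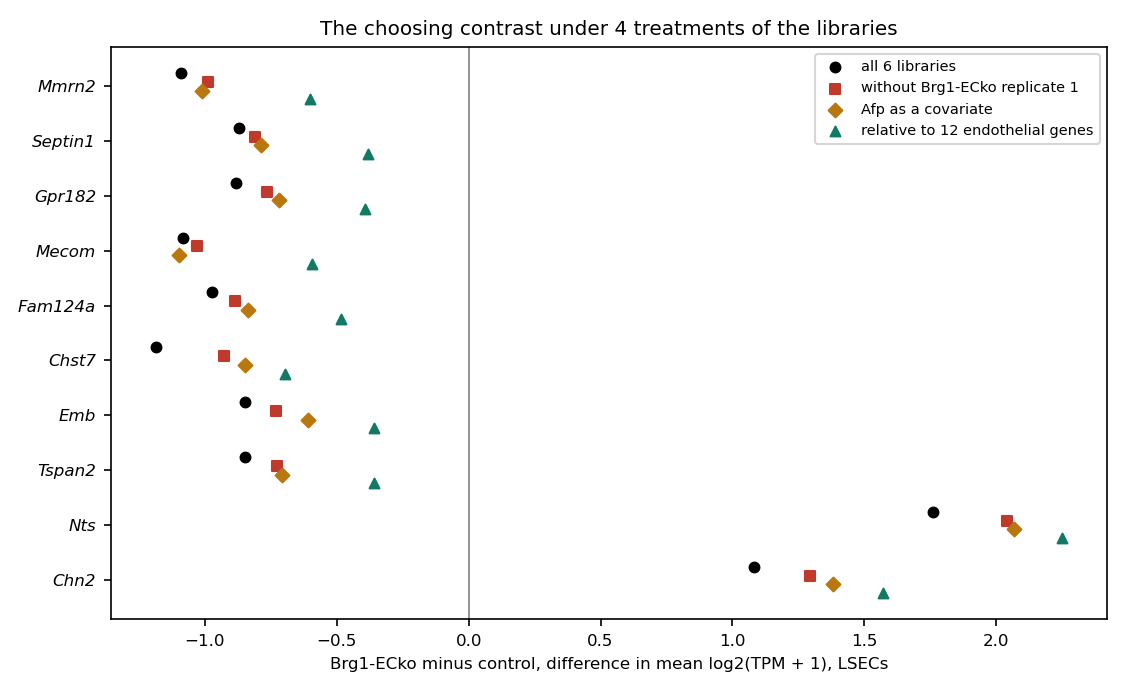
Brg1-ECko minus control difference in mean log2(TPM + 1) in LSECs (x axis) for each member (y axis). Circles use all 6 libraries, squares leave out Brg1-ECko replicate 1, diamonds add Afp as a covariate and triangles are relative to 12 endothelial genes, where the 8 lower members lie between -0.70 and -0.36 and Nts and Chn2 lie at 2.25 and 1.57.

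The levels of the members in non-EC cells set them apart from each other. Mmrn2 was at 0.209 TPM or less in all 12 non-EC libraries and Chst7 at 0.468 TPM or less. Nts was listed at 0 in 9 of the 12. These 3 members did not reach 1 TPM in 3 non-EC libraries and were not tested there. Mecom (0.140 to 1.24 TPM), Gpr182 (1.79 to 5.25 TPM), Tspan2 (2.28 to 4.59 TPM) and Chn2 (2.41 to 4.32 TPM) were low. Fam124a (4.19 to 12.4 TPM) was higher, and Septin1 (21.5 to 40.3 TPM) and Emb (21.8 to 56.6 TPM) were the highest. Mecom entered the non-EC test only through Brg1-ECko and ECdko libraries in which it was higher.

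LSECs and non-EC cells were compared in the 12 libraries of Chd4-ECko and ECdko, whose group means took no part in the choice. All 10 members were higher in LSECs and passed the test (limma), against 38.1% of all 13485 genes in that direction. Mmrn2, Nts, Chst7 and Mecom did not reach 1 TPM in 3 non-EC libraries and entered this test through LSECs, where they were high, so their count is no support for a difference. Mmrn2 had a difference of 5.95 (SE 0.104). Gpr182 differed by 4.45, Chst7 by 2.64, Mecom by 2.46, Nts by 1.99 and Tspan2 by 1.71, and these 6 and Septin1 (0.93) had libraries that did not overlap, where all genes had 26.9%. The limit on Mmrn2, Nts, Chst7 and Mecom holds for this count too, so it is a description. Emb (0.64), Fam124a (0.61) and Chn2 (0.43) overlapped, with adjusted p-values of 0.00121, 0.00256 and 0.00413 (limma). Under quantile normalization Chn2 reversed to -0.19. The genotypes left out of this test differed from those in it for some members. Septin1 had means of 32.9 TPM in LSECs and 26.7 TPM in non-EC cells of control, but 17.6 and 24.3 TPM in Brg1-ECko. Fam124a had means of 28.5 and 6.26 TPM in control and 14.2 and 4.98 TPM in Brg1-ECko. All 12 endothelial genes passed with a median of 4.23, so Mmrn2 lay above and Gpr182 near that median, and the other 8 members lay below it. Of the 12 stellate and mesenchymal genes 11 passed higher, also with a median of 4.23, and the part of these cells in the members' values was not tested.

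**Figure D4:**
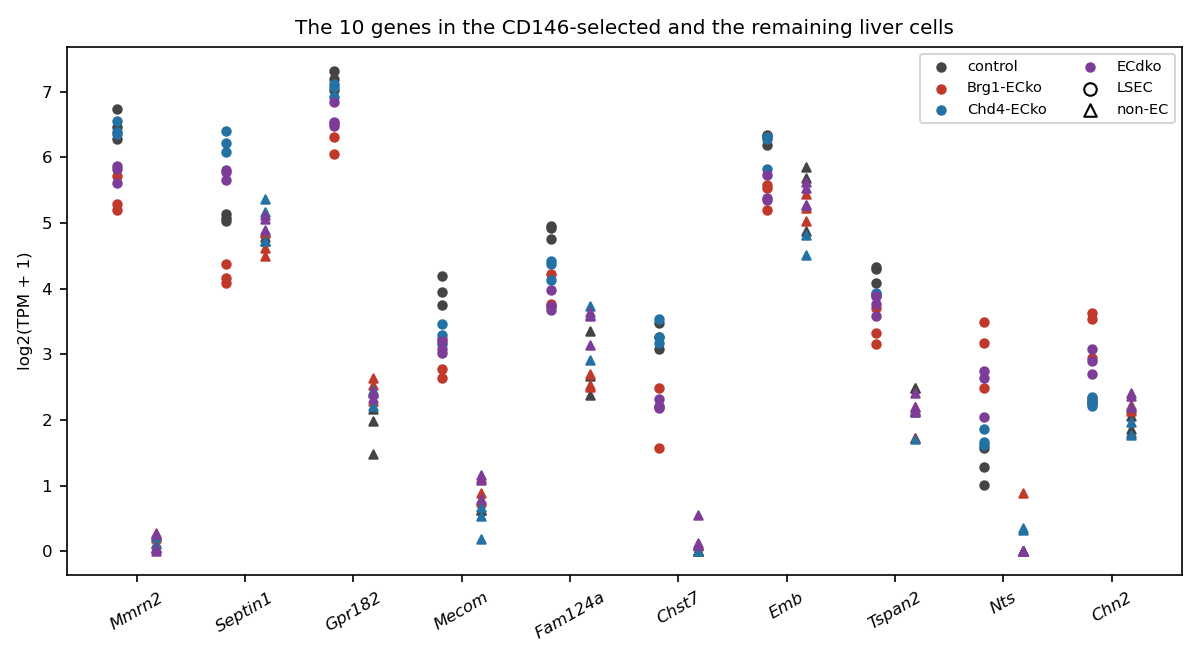
Level of each member as log2(TPM + 1) (y axis) in the 12 LSEC libraries (circles) and 12 non-EC libraries (triangles), coloured by genotype. Mmrn2, Gpr182, Mecom and Chst7 show the widest gaps between the fractions, while Septin1, Emb, Fam124a and Chn2 overlap.

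In non-EC cells Gpr182 was the only one of 7 members tested to pass between Brg1-ECko and control, against 11.7% of all 12223 genes. Control non-EC libraries had 3.47, 1.79 and 2.96 TPM and Brg1-ECko libraries 5.25, 3.88 and 4.81 TPM, a rise of 0.61 (SE 0.180; limma, adjusted p = 0.0483), opposite to its direction in LSECs. The call was lost in 9 of the 14 alternative settings that tested the gene, with adjusted p-values from 0.0283 to 0.243. The summed endothelial TPM were 56.7 to 79.2 in these control and 72.6 to 97.4 in these Brg1-ECko libraries, with 0 of 8 endothelial genes passing, 3 at an unadjusted p under 0.05 (Cdh5 and Ecscr higher, Tek lower) and a median of 0.28 (limma). Of the sinusoidal genes 7 of 8 were higher and Bmp2 passed (1.24; limma, adjusted p = 0.0423). The hepatoblast list had 11 of 12 genes that rose (median 0.94) and the erythroid list 6 of 12 that fell (median -0.89). The part of these lists in the Gpr182 value was not tested. Tspan2 was lower by 0.48 without passing (limma, adjusted p = 0.116). The other 5 had adjusted p-values of 0.235 or more. In ECdko against Chd4-ECko non-EC cells, 0 of the 7 members passed, as 0 of all 12223 genes did (limma), with 3 members and 2668 genes at an unadjusted p under 0.05, the latter 21.8% of all. The 3 were Chn2 (0.35), Emb (0.61) and Mecom (0.54), of which Mecom entered the test through libraries where it was higher. Without Chd4-ECko replicate 1, Chn2 and Emb passed (limma, adjusted p = 0.0371 and 0.0289), as did Mecom under the same limit (0.0277) and 3943 genes in all.

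The test of whether the ECdko difference itself differed between LSECs and non-EC cells passed for 0 of the 10 members (limma), against 0.0222% of all genes, with 6 of the 10 at an unadjusted p under 0.05, where all genes had 5.27%. Of the 6, Mmrn2, Nts and Chst7 were at or near 0 in non-EC cells, so that their values rest mainly on the LSEC difference, and Mecom was at 1.24 TPM or less there, so nothing is read from this count. Chst7 had a difference of differences of -1.31 (SE 0.236; limma, adjusted p = 0.183) and Emb of -1.27 (SE 0.286; limma, adjusted p = 0.523). Emb was 0.65 lower in LSECs and 0.61 higher in non-EC cells of the same genotypes. Mecom was 0.21 lower and 0.54 higher, with a difference of -0.75 (SE 0.247; limma, adjusted p = 0.829). Without Chd4-ECko non-EC replicate 1, Emb passed this test (-1.48; limma, adjusted p = 0.0327), as did Chst7 under the same limit as above (0.0499), in a fit where 70 of 13453 genes passed in place of 3 and 16.9% had an unadjusted p under 0.05.

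For each member the 3 tested genes with the highest Pearson r over the 12 libraries were listed, as a description. These libraries include the control and Brg1-ECko groups whose difference chose the members, so likeness between members is partly built in. Over the 28 pairs of lower members r ranged from 0.099 to 0.973, with the low values for Septin1, and over the 16 pairs of a lower and a higher member from -0.80 to -0.44. Mmrn2 was most like Gpr182 (r = 0.973), then Dysf (0.959) and Gpihbp1 (0.955), the last of which anchors lipoprotein lipase on capillary endothelium. Tspan2 was most like Dysf (0.971), Cd93 (0.953) and Gpr182 (0.952), and Gpr182, after Mmrn2, like Igfbp4 (0.973) and Ehd3 (0.957). Mecom was most like Nos3 (0.932), the endothelial nitric oxide synthase, and Fam124a like Nherf2 (0.962) and Aqp1 (0.949). Emb and Chst7 were on each other's lists (0.941), beside Akr1b8 (0.973) for Emb and Klhl36 (0.968) for Chst7. Nts and Chn2 were most like each other (0.951) and both like Mc5r (0.929 and 0.922). Septin1 was most like Ripk3 (0.945), which encodes a kinase of necroptosis, and Dusp2 (0.941).

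Taking each library as its deviation from its group mean, all 28 pairs of lower members correlated positively (median r = 0.700, from 0.059 to 0.906), and so did all 16 pairs of a lower and a higher member (median r = 0.646, from 0.147 to 0.829). The same deviations correlated with those of Cdh5, the gene of VE-cadherin, at r = 0.566 (Septin1) to 0.940 (Gpr182), and with those of Afp at -0.826 (Chn2) to 0.037 (Mecom). These values describe 12 libraries and share the TPM scale.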

How the data were processed

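RNA of CD146-selected LSECs and the remaining non-EC cells was sequenced by the authors as paired reads, trimmed of repeated guanines, aligned to GRCm39 (also named mm39) and quantified in CLC Genomics Workbench. The deposited values are TPM per gene, each library summing to 1000000, so counts and depth are unknown and no counting interval can be given. The 8 deposited columns of group means were not used, and 0 columns fell outside the design. Values of 25361 genes were analysed as log2(TPM + 1) with limma 3.58.1 (R 4.3.3), with trended moderation, Benjamini-Hochberg adjustment and 2-sided tests, on genes that reached 1 TPM in 3 or more of the libraries modelled. The Brg1-ECko ranking used the 12 LSEC libraries, ECdko against Chd4-ECko LSECs their 6 libraries, the non-EC tests the 12 non-EC libraries, and the fraction tests the 12 libraries of Chd4-ECko and ECdko. The members and gene lists were chosen with earlier results of these data known. Genes named beyond the members came from the 3 most alike by Pearson r, the nearest tested neighbours and ranks 8, 9, 13 and 14. Ranks 8 and 14 lie beyond the planned range of 9 to 13. From each list, genes that passed or else the most abundant were planned, but this was not kept to for every list. Other list genes were picked with their values known.

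No libraries were identical, and replicates correlated at 0.962 to 0.993 (log2 scale). Libraries of the same genotype and number from different fractions deviated together (12 of 12 correlations over 0.1, 0.124 to 0.411), which pairs the fractions. Alternatives changed the pseudocount (0.1), filter, normalization, moderation, covariates, the libraries fitted and each left-out library, as given in the closing section. Positions and promoters came from GENCODE vM39 and the GRCm39 genome by Ensembl identifier. Scripts were tested on simulated data. Figures used matplotlib 3.10.9.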

Additional observations from a re-analysis of the deposited data

How the results depend on the processing

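For Brg1-ECko against control LSECs, the Afp and Eif2s3y covariates were chosen after seeing the data. With Eif2s3y as a covariate all 10 members kept their direction there, with Chst7 at -1.21 and Mecom at -0.96. In that fit 4.43% of all genes had an unadjusted p under 0.05 (limma), against 9.68% without the covariate. In ECdko against Chd4-ECko LSECs, all tested members kept their direction under every alternative run, and the number that passed (1, Chst7) became 0 without a filter, without mitochondrial genes, with Eif2s3y or Afp as a covariate, with all 12 LSEC libraries in the model and relative to the endothelial genes, 2 under quantile normalization and 3 with a mean of at least 5 TPM. Leaving out each library gave 0 to 3, with 3 without Chd4-ECko replicate 1 and 0 without Chd4-ECko replicate 3. Over all genes, the 69 that passed ranged from 2 to 437 over these settings.

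For Brg1-ECko against control non-EC cells, the 1 member that passed (Gpr182) became 0 with a pseudocount of 0.1 TPM, without a filter, with a mean of at least 5 TPM (which left 3 members), without mitochondrial genes, with Eif2s3y as a covariate and with the 2 groups alone, and 2 under quantile normalization. Leaving out each library gave 0 to 1, with 0 without control replicates 2 or 3 or Brg1-ECko replicates 1 or 3. Fam124a ranged from -0.436 to 0.0505 with a library left out, reversing without control replicate 2. For ECdko against Chd4-ECko non-EC cells the 0 members became 0 to 3 with a library left out, with 3 without Chd4-ECko replicate 1, where 3943 genes passed. There Fam124a reversed to -0.11 under quantile normalization and Gpr182 to -0.15. With a library left out, Fam124a ranged from -0.211 to 0.199, Gpr182 from -0.0555 to 0.0697 and Septin1 from -0.238 to 0.0855.

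For LSECs against non-EC cells, a mean of at least 5 TPM left 6 members, all of which passed. Under quantile normalization 9 of 10 passed, and Chn2 reversed to -0.19. The difference between fractions passed for 1 member under quantile normalization and for 0 to 2 with a library left out, with 2 without Chd4-ECko non-EC replicate 1, where 70 of 13453 genes passed in place of 3. Of the 12 smallest p-values in Brg1-ECko against control LSECs, members held 10, and 6 without mitochondrial genes, 2 relative to the endothelial genes, 3 with the Afp covariate and 4 to 7 with a library left out. The cause of these changes was not tested.

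Same-numbered libraries of different genotypes deviated together more often than other pairs, though not throughout. In LSECs 13 of 18 such pairs were over 0.1 (mean r = 0.171), against 8 of 36 other pairs (mean r = -0.085). In non-EC cells it was 10 of 18 (mean r = 0.127) against 8 of 36 (mean r = -0.067). What libraries of the same number share is not given in the labels. With the replicate number as a block, 1 member passed in ECdko against Chd4-ECko LSECs and 36 genes in all, 1 member in Brg1-ECko against control non-EC cells, 0 in ECdko against Chd4-ECko non-EC cells, 10 between fractions, 0 for the difference between fractions, and members held 8 of the 12 smallest p-values in Brg1-ECko against control LSECs. A block for the paired fractions also left 10 and 0. Depth is unknown, so low values such as Nts in control LSECs have no counting error.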
